A study of Gallus gallus with 6 samples.

Results

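The genes described here are cytokine receptors, chosen by name from a list of 10: IL2RG, CSF3R, CSF2RB, IL10RA, IL10RB, IL6ST, IL4R, IL21R, IL1R1 and OSMR. A gene was taken as measured when its name stood in the deposited comparison table, which holds 16963 gene IDs, 12462 of them with a name. This was so for 7 of the 10, and CSF2RB, IL4R and OSMR are not analysed here. The 7 comprise 10 transcripts, and all 7 passed the filter on low counts. The rule uses names alone, although the list was drawn up with earlier results of these data known.

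The RNA came from COVCAR cells, chicken ovarian adenocarcinoma cells taken from the ascites of birds with ovarian cancer. The 3 primary lines C27, C29 and C30 (replicates 1, 2 and 3) were each grown to confluence on gelatin-coated flasks, detached with trypsin and sorted by flow cytometry for aldehyde dehydrogenase (ALDH) activity. Each line gave 1 ALDH- and 1 ALDH+ library, 6 in all, of 22170788 to 26747453 estimated counts. No group carried a genetic change or drug treatment in the labels, the sources used here do not state the age or strain of the birds, and both fractions of a line came from the same cultured line.

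Class I cytokine receptors (IL2RG, IL21R, CSF3R, IL6ST) and class II receptors (IL10RA, IL10RB) have no enzyme activity of their own. Ligand brings chains together, and Janus kinases (JAK) bound to their tails then phosphorylate STAT transcription factors. IL1R1 belongs to a separate family and signals with the accessory chain IL1RAP through MYD88 and IRAK kinases. In tissue, the common gamma chain, the granulocyte receptor and the ligand-binding IL-10 chain are known mainly from leukocytes, whereas IL6ST (gp130) and IL1R1 are also made by stromal and epithelial cells.

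Of the 7 receptors 4 were called lower in ALDH+ cells, IL2RG and CSF3R by the largest folds of these. IL2RG, CSF3R, IL10RB and IL21R fell, by 38.1-fold, 27.4-fold, 3.96-fold and 6.80-fold in edgeR (fold of fitted means, n = 3 per group). IL10RA, also lower in each line, did not pass in this fit, and IL6ST and IL1R1 had positive log2 changes that did not pass. The calls are 4 of 7 members, against 5.30% of the 12811 genes tested that were lower in ALDH+. No member was called higher (0.835% of all genes were), although IL1R1 had an unadjusted p under 0.05. DESeq2 and limma-voom also called 0 members higher, against 654 and 115 of all genes. Both tools called 5 members lower, against 985 and 654 of all genes. With the line as a block 0 members were higher and 5 lower, against 5.92% and 7.60% of all genes. IL1R1 and IL6ST were nevertheless higher in ALDH+ in each of the 3 lines, as were 28.4% of all genes. The median log2 change of the 7 was -2.28, beside 0 for all genes tested. In 6 of the 7 the ALDH+ and ALDH- libraries did not overlap, as was so for 25.8% of all genes. Fewer cells of a type and less RNA per cell cannot be told apart in these bulk samples.

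**Figure D1:**
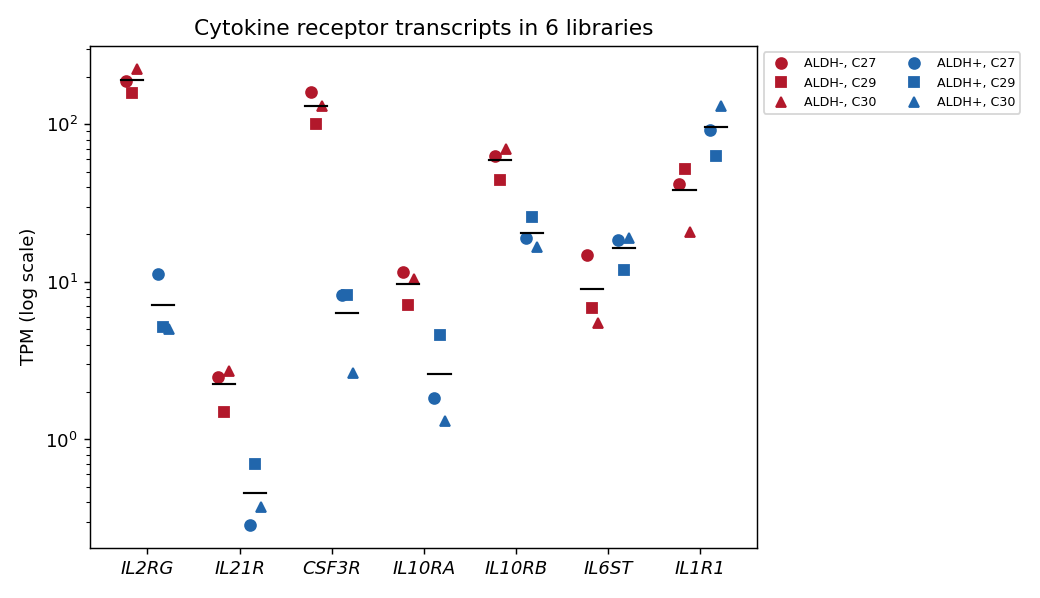
Levels of the 7 measured receptors in TPM (transcript abundance per length, scaled to the same total in every library; log axis) in each library, with ALDH- in red, ALDH+ in blue, a symbol per line and a black bar at the mean of 3 libraries. IL2RG ran from 156.8 to 225 in ALDH- and from 5.01 to 11.2 in ALDH+ libraries, while IL1R1 ran from 20.7 to 51.9 and from 62.6 to 131.4. TPM does not use the TMM factors of the tests, and gaps between fractions differ by scale. In CPM (counts scaled to library size with TMM factors) IL1R1 ran from 39.6 to 79.0 in ALDH- and from 81.1 to 145.3 in ALDH+ libraries.

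Macrophage, lymphocyte, and heterophil and mast cell markers had negative median log2 changes, as the 7 receptors did. Fibroblast, epithelial and mesothelial markers had positive medians (0.81, 0.40 and 0.98), and all 12 fibroblast markers had a positive log2 change. The median of all genes tested was 0. Beside the counts below, 5.30% of all genes tested were lower and 0.835% higher in edgeR, and 7.60% and 5.92% with the line as a block. Of 14 measured macrophage markers 13 fell, with a median log2 change of -5.06. Their summed level was 5734 to 11320 CPM (counts scaled to library size with TMM factors) in ALDH- and 197.6 to 382.9 CPM in ALDH+ libraries. None of these markers was at 0. Of 12 genes listed as lymphocyte markers with a row 7 were tested, and PTPRC, IKZF1, CD5 and BLK fell. The fall of CD5 was not called without ALDH- C30 or ALDH+ C27 or C30. PTPRC and IKZF1 are not confined to lymphocytes. The summed level of the list was 171 to 447.8 CPM in ALDH- and 17.3 to 35.7 CPM in ALDH+ libraries. The B cell factor PAX5 and the recombinase gene RAG1 had no count in any library, and the T cell receptor genes CD3E and CD3D stood at 0.748 and 2.67 CPM in ALDH- and at 1.83 and 1.78 CPM in ALDH+ cells. Of 9 listed heterophil and mast cell markers only LYZ, S100A12, KIT and LYG2 had a row. S100A9, MPO, CEBPE, CTSG and ELANE had none and were not measured under these names. Of the 4 with a row 3 fell and 1 had a positive log2 change (summed 352.7 to 5906 against 11.1 to 52 CPM). The number lower was 2 in DESeq2 and without ALDH+ C27, and 1 without ALDH+ C29. Of 12 fibroblast markers 0 passed in edgeR (4 higher at an unadjusted p under 0.05, 2 higher in DESeq2, 0 in limma-voom), and 4 rose with the line as a block, at a summed 13880 to 36660 CPM in ALDH- and 20810 to 50810 CPM in ALDH+ libraries. Among 5 tested epithelial markers the keratin genes KRT7 and KRT18 had mean levels of 1435 and 42.8 CPM in ALDH-, EPCAM stood at 0.885 CPM, and CDH1 fell, a call that ended in limma-voom and without ALDH- C30 or any 1 ALDH+ library, while 1 marker was higher in DESeq2 and with the line as a block (summed level of 7 markers 751.8 to 2530 CPM in ALDH- and 1174 to 3283 CPM in ALDH+). Mesothelial markers had 0 of 4 called in edgeR without the block and in limma-voom (1 higher at an unadjusted p under 0.05, in DESeq2 and with the block), at 15.2 to 59.2 and 31.2 to 96.1 CPM. The part of these cells in the receptor differences was not tested.

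IL2RG (ENSGALG00000005638), the common gamma chain shared by the receptors for IL-2, IL-4, IL-7, IL-9, IL-15 and IL-21, stood in C27, C29 and C30 at 279.1, 283.5 and 511.6 CPM in ALDH- cells, and at 13.6, 7.95 and 6.58 CPM in ALDH+ cells. Every ALDH- library lay far above every ALDH+ library, and line C30 had both the highest ALDH- and the lowest ALDH+ value. The mean went from 358.1 ± 132.9 to 9.38 ± 3.72 CPM (SD, n = 3), a log2 change of -5.25 (SE 0.43, edgeR adjusted p = 0.0011). By unadjusted p it ranked 17 of 12811 genes. Its ALDH+ values rest on 405, 176 and 163 counts.

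IL21R (ENSGALG00000006318) encodes the private chain that pairs with IL2RG to bind IL-21. It was the least abundant member, at 4.28, 3.12 and 7.12 CPM in ALDH- and 0.403, 1.17 and 0.565 CPM in ALDH+ libraries of C27, C29 and C30. The groups did not overlap, and the ALDH+ values rest on 12, 26 and 14 counts. The log2 change was -2.76 (SE 0.57, edgeR adjusted p = 0.0265). Leaving out ALDH- C30, ALDH+ C27 or ALDH+ C30 ended the call (edgeR adjusted p = 0.11, 0.101 and 0.0925). The ligand gene IL21 had no count in any library.

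The ratio of IL21R to IL2RG in TPM was 0.0133, 0.00955 and 0.0121 in ALDH- and 0.0257, 0.136 and 0.0745 in ALDH+ libraries. The common chain exceeded the private chain in every library, and the ALDH+ ratios all lay above the ALDH- ratios. On the log2 scale (pseudocount 0.1) the ratio went from -6.37 ± 0.22 to -3.67 ± 1.1 (SD, n = 3), a difference of 2.70 with p = 0.1 in a two-sided exact permutation test (0.2 adjusted over 2 pairs). The permutation moved libraries freely between fractions and did not keep the pairing by line. A p of 0.1 is the smallest that 3 against 3 libraries allow in this way. Of 4 planned pairs, those with OSMR and IL4R could not be formed.

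CSF3R (ENSGALG00000002112), the receptor for granulocyte colony-stimulating factor, stood at 322.3, 244.5 and 400.4 CPM in ALDH- and 13.5, 17.1 and 4.64 CPM in ALDH+ libraries. The lowest ALDH- value was far above the highest ALDH+ value, and C30 again held both extremes. The mean went from 322.4 ± 77.9 to 11.8 ± 6.40 CPM (SD, n = 3), a log2 change of -4.78 (SE 0.52, edgeR adjusted p = 0.00178). IL2RG and CSF3R kept their calls whichever library was left out (edgeR adjusted p = 0.00146 to 0.0124 and 0.00325 to 0.0132). Their changes lie among those of the macrophage markers, which ranged from -5.97 to -2.10. The ligand gene CSF3 was expressed in both fractions, at 21.0, 80.0 and 171.9 CPM in ALDH- and 49.1, 53.3 and 520.3 CPM in ALDH+ libraries, and did not pass (log2 1.19, edgeR adjusted p = 0.55).

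IL10RA (ENSGALG00000032260) binds IL-10, and IL10RB (ENSGALG00000037989) is the second chain, shared with receptors for IL-22 and lambda interferon. IL10RA stood at 21.4, 16.1 and 29.3 CPM in ALDH- and 2.79, 8.85 and 2.14 CPM in ALDH+ libraries, so that the groups did not overlap, with the ALDH+ library of C29 nearest to the ALDH- range. Its log2 change of -2.28 (SE 0.57, edgeR adjusted p = 0.0569) did not pass. With the line as a block it fell by 2.52 (log2; adjusted p = 0.0293), and the blocked count of members lower was 5, against 7.60% of all genes. Without the ALDH+ library of C29 the value was -3.17 (edgeR adjusted p = 0.0154). IL10RA did not pass when any other single library was left out (edgeR adjusted p = 0.0678 to 0.198).

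IL10RB stood at 78.9, 68.6 and 133.4 CPM in ALDH- and 19.5, 33.4 and 18.1 CPM in ALDH+ libraries. The groups did not overlap, and the ALDH+ level of this chain lay above that of IL2RG or CSF3R on the per-length scale, the reverse of their order in ALDH- cells, at 20.5 ± 4.68 TPM against 7.11 ± 3.52 and 6.38 ± 3.25 TPM (SD, n = 3). Its log2 change was -1.98 (SE 0.36, edgeR adjusted p = 0.0156). Leaving out ALDH- C30, ALDH+ C27 or ALDH+ C30 ended the call (edgeR adjusted p = 0.0535, 0.0705 and 0.0552). In each of these 3 fits the members lower numbered 2, and all genes lower numbered 430, 460 and 505. Transcript ENSGALT00000073701 held 61.8 to 74.8% of the gene's counts in the libraries other than ALDH+ C30, where it held 50.1%.

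The TPM ratio of IL10RA to IL10RB was 0.183, 0.161 and 0.150 in ALDH- and 0.0967, 0.180 and 0.0786 in ALDH+ libraries. The C29 ALDH+ value lay among the ALDH- values, so the groups overlap. The log2 ratio differed by -0.51 (-2.59 ± 0.15 against -3.11 ± 0.59, SD, n = 3). The two-sided exact permutation p was 0.3 (also 0.3 adjusted over 2 pairs), again without the pairing by line. The ligand gene IL10 had 59 counts in ALDH- and 11 in ALDH+ cells, summed over lines, and did not pass the filter.

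IL6ST (ENSGALG00000014716), or gp130, carries the signal of IL-6, IL-11, LIF and related cytokines. It stood at 38.5, 22.3 and 21.8 CPM in ALDH- and 43.7, 33.3 and 45.5 CPM in ALDH+ libraries. The ALDH+ value was the higher in each of the 3 lines, but the groups overlap because the ALDH- library of C27 exceeded the ALDH+ library of C29. The log2 change of 0.57 (SE 0.30) did not pass in edgeR (adjusted p = 0.333), nor with the line as a block (0.61, SE 0.24, adjusted p = 0.146). With fibroblast markers held at a median change of 0, a scaling that puts the median of all genes at -0.80, its value turned to -0.24.

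IL6ST has 2 transcripts. ENSGALT00000023728 (4245 bases) held 66.8, 73.2 and 68.6% of the gene's counts in ALDH- and 90.1, 77.1 and 76.7% in ALDH+ libraries of C27, C29 and C30. Its share was higher in ALDH+ in each line. In the authors' deposited table this transcript had a log2 change of 0.8 (SE 0.35, unadjusted p = 0.0164). ENSGALT00000062394 (2792 bases) had a log2 change of -0.2 (SE 0.52, unadjusted p = 0.739) in the authors' deposited table. The adjusted p of both in the authors' deposited table is 1, by a method not given there.

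IL1R1 (ENSGALG00000043044), the signalling receptor for IL-1, stood at 52.4, 79.0 and 39.6 CPM in ALDH- and 94.4, 81.1 and 145.3 CPM in ALDH+ libraries. The ALDH+ values all lay above the ALDH- values, by a narrow margin in C29. The mean went from 57.0 ± 20.1 to 106.9 ± 33.9 CPM (SD, n = 3), a log2 change of 0.91 (SE 0.33, unadjusted p = 0.0258, edgeR adjusted p = 0.172), which did not pass, nor did it with the line as a block (0.92, adjusted p = 0.129). Scaled to fibroblast markers the value was 0.10.

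**Figure D2:**
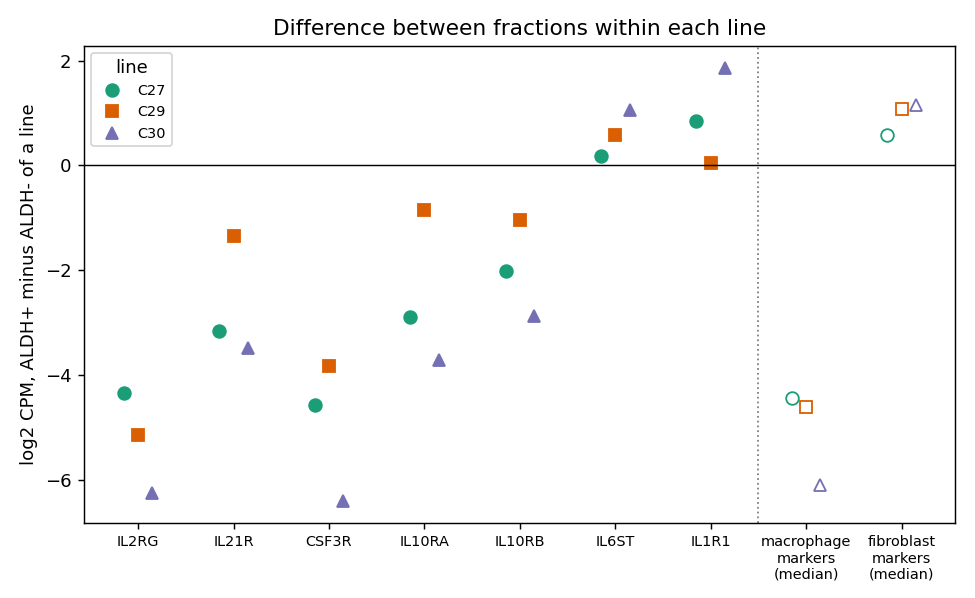
Difference in log2 CPM between the ALDH+ and the ALDH- library of each line for the 7 receptors (filled symbols), with the median over 14 macrophage and 12 fibroblast markers (open symbols). In C29 the differences of IL10RA, IL10RB, IL21R and IL1R1 were -0.85, -1.04, -1.35 and 0.04, nearer to 0 than in C27 or C30.

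Within lines the size of the difference varied. In C30 IL2RG, CSF3R, IL10RA, IL10RB and IL21R differed by -6.26, -6.41, -3.72, -2.87 and -3.48 in log2 CPM, and the macrophage markers by a median of -6.11. The corresponding values in C27 were -4.35, -4.57, -2.90, -2.01 and -3.17, with -4.44 for the macrophage markers. In C29 IL2RG and CSF3R differed by -5.14 and -3.83 and the macrophage markers by -4.61. With 1 library per line and fraction, a difference between lines in the size of the change has no replicate check. Averaged over fractions, no member differed between lines in edgeR's F test, where 0.367% of all genes did. Its adjusted p ran from 0.405 to 0.891 for the members, with 0 at an unadjusted p under 0.05. A DESeq2 likelihood ratio test also called 0 members, where 9.57% of all genes passed. Without the ALDH- library of C29, IL10RA passed in edgeR's F test (adjusted p = 0.0188), in a fit where 15.1% of all genes did.

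The order of the receptors by TPM differed between fractions. IL2RG and CSF3R led in each ALDH- library, with 189.7 ± 34.2 and 130.9 ± 30.1 TPM (SD, n = 3), ahead of IL10RB at 58.9 ± 12.9 and IL1R1 at 38.2 ± 16.0. Their ranges met, with the highest CSF3R value (160.8) just above the lowest IL2RG value (156.8). In ALDH- cells IL10RB and IL1R1 lay within their spread, as did IL10RA (9.70 ± 2.27) and IL6ST (9.06 ± 5.04), and IL21R came last at 2.24 ± 0.65. In ALDH+ cells IL1R1 led in every library at 95.4 ± 34.5 TPM, followed by IL10RB and IL6ST (16.4 ± 3.98), which lay within their spread, then IL2RG and CSF3R, also within theirs, IL10RA at 2.60 ± 1.78 and IL21R at 0.455 ± 0.22. IL1R1 made up 8.70, 14.1 and 4.45% of the summed TPM of the 7 receptors in ALDH- and 61.0, 52.6 and 74.5% in ALDH+ libraries.

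**Figure D3:**
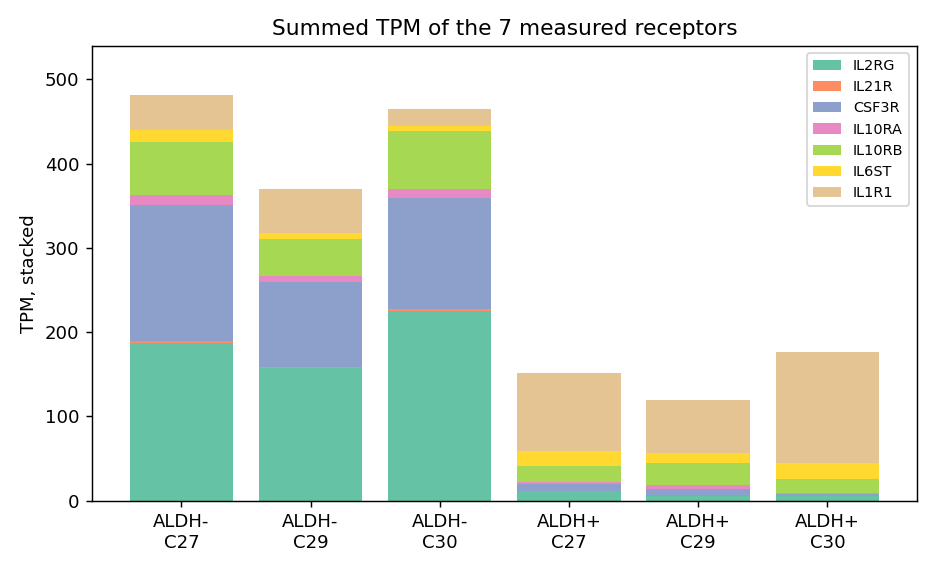
Summed TPM of the 7 receptors in each library, stacked by gene from 0. The sum was 481.8, 369.4 and 464.9 TPM in ALDH- and 151.3, 118.9 and 176.4 TPM in ALDH+ cells of C27, C29 and C30. In CPM, which uses TMM factors as TPM does not, the sum ran from 717.1 to 1143 in ALDH- and from 182.8 to 222.8 in ALDH+ libraries.

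The other class I and class II chains were taken from a list, of which 33 are considered here, 25 had a row and 17 were tested. Of these 17 chains 7 fell and 0 rose in edgeR, against 5.30% and 0.835% of all genes tested. The number higher was 2 at an unadjusted p under 0.05 and in DESeq2, and 0 in limma-voom. The median log2 change was -0.62. The falls included CSF2RA, the ligand-binding chain for granulocyte-macrophage colony-stimulating factor (89.7 ± 28.3 to 9.02 ± 3.48 CPM, n = 3; log2 -3.31, SE 0.40, edgeR adjusted p = 0.00256), and IL22RA2, the soluble IL-22 binding protein (-4.30, SE 0.56, adjusted p = 0.00377). IFNAR1, a type I interferon receptor chain, fell from 125.8 ± 40.1 to 35.4 ± 2.85 CPM (-1.83, adjusted p = 0.00644). IL2RA, the alpha chain of the IL-2 receptor, fell from 5.91 ± 1.97 to 0.321 ± 0.20 CPM (-4.15, SE 0.64, adjusted p = 0.0072). Its ALDH+ values rest on only 14, 2 and 10 counts in C27, C29 and C30. With the line as a block 2 were higher and 7 lower, against 5.92% and 7.60% of all genes. Singled out after its value was seen, IL6R, the IL-6-binding partner of IL6ST, fell by 3.11 on the log2 scale (edgeR adjusted p = 0.0122). LIFR and IL11RA, receptor chains for LIF and IL-11, went the other way, at 1.40 and 1.27 (edgeR adjusted p = 0.15 and 0.461). Both were higher with the line as a block (1.31 and 1.48, adjusted p = 0.0496 and 0.0367).

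**Figure D4:**
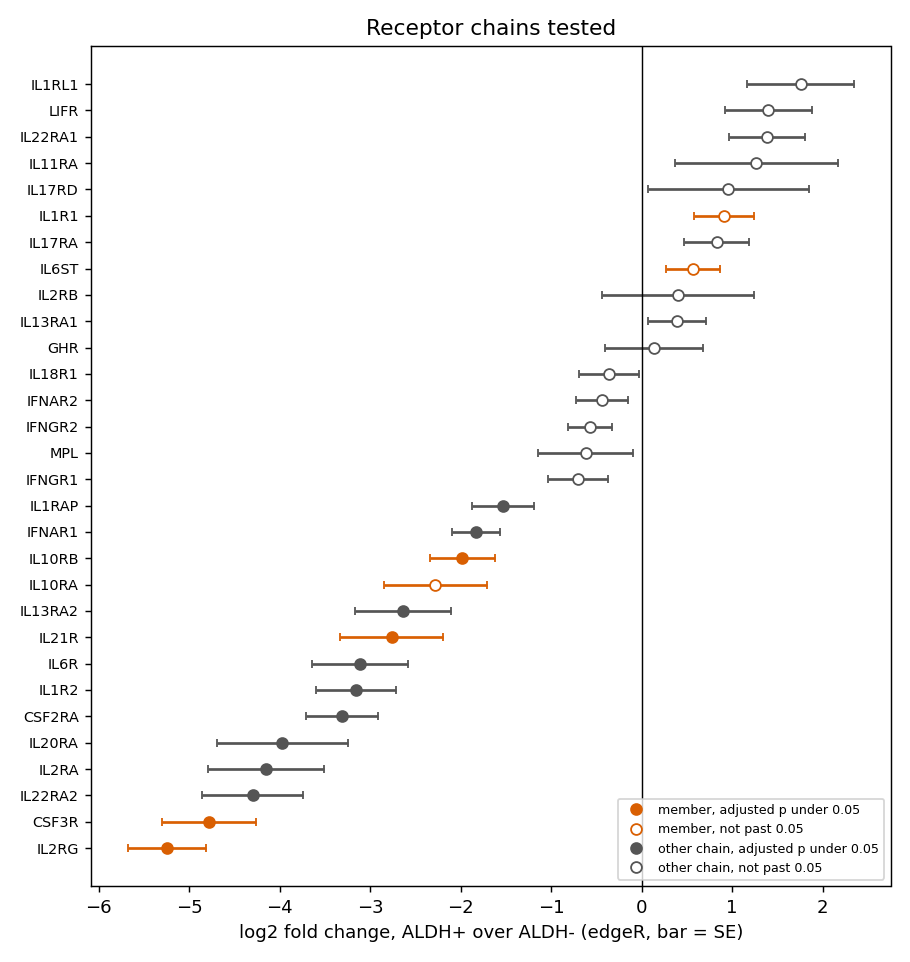
Log2 fold change of ALDH+ over ALDH- with its SE (edgeR, 3 libraries per group) for the 7 members (orange) and other tested receptor chains (grey); filled points have an adjusted p under 0.05. IL2RG (-5.25) and CSF3R (-4.78) lie at the far left beside IL22RA2 (-4.30), and the points of IL6ST (0.57) and IL1R1 (0.91) to the right of 0 are open.

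Of 14 measured IL-1 and IL-17 receptor chains and adaptors 11 were tested. In edgeR 2 fell and 0 rose, against 5.30% and 0.835% of all genes tested. The number higher was 1 at an unadjusted p under 0.05 and in DESeq2, and 0 in limma-voom. The median log2 change was 0.07. IL1R2, a decoy receptor that binds IL-1 without signalling, stood at 134.3, 65.5 and 205.9 CPM in ALDH- and 11.5, 14.9 and 19.0 CPM in ALDH+ libraries. The groups lay far apart, and the log2 change was -3.16 (SE 0.44, edgeR adjusted p = 0.00455). The accessory chain IL1RAP went from 135.5 ± 53.7 to 47.0 ± 12.1 CPM (-1.53, SE 0.34, adjusted p = 0.0355), a call that ended when ALDH- C30 (0.143) or ALDH+ C27 (0.0687), C29 (0.114) or C30 (0.102) was left out. IL1RL1, the IL-33 receptor, stood at 1.76 (adjusted p = 0.137) and rose by 1.85 with the line as a block (adjusted p = 0.00767), while IL17RA, an IL-17 receptor chain, stood at 0.83 (adjusted p = 0.244).

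Chain ratios chosen after the values were seen are given as a description. The TPM ratio of IL1R1 to the decoy IL1R2 was 0.586, 1.80 and 0.287 in ALDH- and 12.3, 8.17 and 11.4 in ALDH+ libraries. IL1R1 to IL1RAP was 0.362, 0.657 and 0.158 against 1.33, 1.82 and 2.54. IL6ST to IL6R was 0.399, 0.179 and 0.121 against 2.25, 1.36 and 7.88. In each of the 3 ratios the ALDH+ and ALDH- libraries were apart. Each sets a gene with a positive log2 change over one called lower, so the separation is not a further test.

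**Figure D5:**
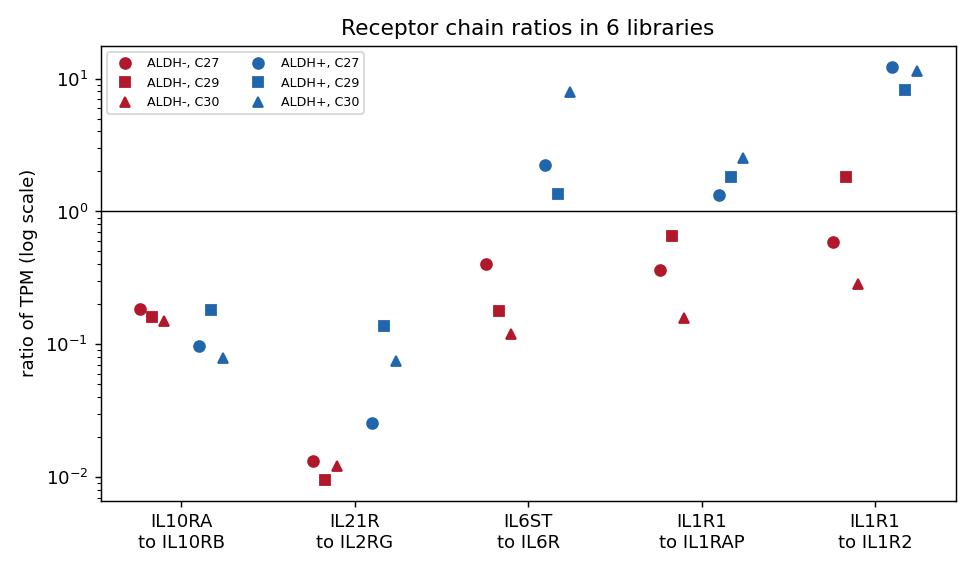
Ratio of TPM between receptor chains in each library (log axis; ALDH- red, ALDH+ blue, a symbol per line, line at 1). The IL1R1 to IL1R2 ratio lies from 8.17 to 12.3 in ALDH+ libraries, and the IL10RA to IL10RB ratio overlaps between fractions.

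Downstream of the receptors, JAK kinases and STAT factors had 8 tested genes of 9 with a row. In edgeR 0 passed (1 lower at an unadjusted p under 0.05 and in DESeq2, 0 in limma-voom). That is near the 5.30% lower and 0.835% higher of all genes tested, given only 8 genes. The median log2 change of the JAK and STAT genes was -0.39, and 0.13 on log2 TPM. On log2 TPM the median of every pathway list was higher than in edgeR, and that of the fibroblast markers was 1.3 against 0.81. The median of all genes on log2 TPM is not given here, so the change of sign is not read as a trait of these genes. JAK3, the kinase that binds IL2RG, stood at 0.909, 1.65 and 8.22 CPM in ALDH- and 0.201, 0.452 and 0.727 CPM in ALDH+ libraries. The groups did not overlap, and its log2 change was -2.96 (SE 0.92, edgeR adjusted p = 0.117), with a fall of 2.60 in the blocked fit (adjusted p = 0.0168) and a call without ALDH- C27 (0.0486). STAT3, the main factor downstream of IL6ST and IL-10, stood at 303.2 ± 50.6 and 195.9 ± 60.2 CPM (-0.63, adjusted p = 0.263), STAT2 at -0.44 (adjusted p = 0.398) and STAT5A at -0.73 (adjusted p = 0.442).

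Of 19 inhibitors of receptor signalling 2 fell and 0 rose in edgeR, against 5.30% and 0.835% of all genes tested. At an unadjusted p under 0.05, 6 were lower and 0 higher, with 5 and 0 in DESeq2 and 2 and 0 in limma-voom. With the line as a block 4 were lower and 0 higher, against 7.60% and 5.92% of all genes. The median log2 change was -0.28, and 0.19 on log2 TPM, a scale on which the median of every pathway list was higher. PTPN6, the phosphatase SHP-1 of blood cells, went from 183.6 ± 69.1 to 5.06 ± 0.88 CPM (n = 3; log2 -5.18, SE 0.36, edgeR adjusted p = 0.0011), and the lipid phosphatase gene INPP5D (SHIP-1) from 57.0 ± 23.7 to 2.41 ± 0.24 CPM (-4.56, adjusted p = 0.0011). CBL, a ubiquitin ligase, and the feedback inhibitor SOCS2 stood at -1.30 and -1.97 (adjusted p = 0.0864 and 0.119), and fell with the line as a block (0.00984 and 0.026).

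Ligand genes had 23 rows of 29 listed, of which 11 were tested. In edgeR 1 fell and 0 rose, against 5.30% and 0.835% of all genes tested. The number higher was 1 at an unadjusted p under 0.05, and 0 in DESeq2 and limma-voom. The median log2 change was 0.21, and -0.18 with the line as a block. IL15, whose receptor uses IL2RG, stood at 33.0, 31.2 and 26.8 CPM in ALDH- and 1.41, 2.44 and 0.727 CPM in ALDH+ libraries. It was low in every ALDH+ library (log2 -4.32, SE 0.46, edgeR adjusted p = 0.0017). IL1B, the ligand of IL1R1, had 27.1, 20.9 and 335.1 CPM in ALDH- and 2.08, 1.94 and 20.2 CPM in ALDH+ libraries (-3.98, adjusted p = 0.151), and it fell by 3.75 with the line as a block (adjusted p = 0.000766); C30 was high in both fractions. IL6 had 24.4, 23.2 and 64.6 CPM in ALDH- and 35.9, 67.3 and 322.2 CPM in ALDH+ libraries (1.92, adjusted p = 0.23), and it rose by 1.48 with the block (adjusted p = 0.0331). IL12B stood at -1.50 (adjusted p = 0.147). IL4, IL9, IL13, IL21 and IL22 had no count in any library.

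Genes known in mammals as STAT targets had 0 of 12 called in edgeR (3 lower at an unadjusted p under 0.05, 1 lower in DESeq2, 0 in limma-voom). Over all genes tested 5.30% were lower and 0.835% higher, and 0 calls among 12 genes is near these shares. The median log2 change of the list was -0.46, and 0.05 on log2 TPM, where the medians of the other pathway lists were higher too. The survival gene MCL1 stood at 445.8 ± 114.8 and 217.5 ± 14.3 CPM (log2 -1.04, edgeR adjusted p = 0.055, and 0.0418 with the block), and IRF1, BATF and CCND1 at -0.74, -1.22 and 0.52 (adjusted p = 0.14, 0.153 and 0.385).

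The genes most like IL2RG over the 6 libraries were sought among 7341 named genes with a mean of at least 10 CPM. They were F7 (a coagulation factor), LCP1 (a leukocyte actin-bundling protein, also on the macrophage list) and MYO1F (an unconventional myosin). Their root mean square differences from IL2RG in centred log2 CPM were 0.153, 0.155 and 0.175, against a median of 2.65 over all candidates. Profiles were centred but not scaled, so that median largely reflects the size of IL2RG's own change. Those most like IL6ST were TRIP11 (a Golgi protein), ZC4H2 (a zinc finger protein) and SEL1L3, at 0.069, 0.076 and 0.077 against a median of 0.58.

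IL10RB lies between IFNAR2 and IFNAR1, with IFNGR2 next to IFNAR1, in the gene order of the RefSeq annotation of another assembly (GRCg7b). All 4 are class II receptor chains, and IL10RB and IFNAR1 passed (log2 -1.98 and -1.83), while IFNAR2 and IFNGR2 stood at -0.44 and -0.57 (edgeR adjusted p = 0.431 and 0.231). Next to IL1R1 lies IL1R2, whose values are given above. On the other side of IL1R1 lies IL1RL1, 2 genes away, with a positive log2 change (1.76, edgeR adjusted p = 0.137). By IL10RA, TMPRSS13 fell (-2.18, edgeR adjusted p = 0.0243), while FXYD6 beyond it stood at 0.93 (edgeR adjusted p = 0.21). Neighbours of the other members are not described.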

How the data were processed

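Estimated counts (expected counts) per transcript and TPM were deposited by the authors, and FastQC, Trimmomatic, HISAT2, kallisto, DESeq2 and GRCg6a are named per the submitters' processing notes, without versions or roles. Per transcript, the table of comparisons deposited by the authors gives a signal (count over a size factor), a ratio, log2 fold changes with SE, p-values and a score. Lengths, in bases and thus an other unit, stand in the deposited tables, per the file headers. Of the positive deposited counts 42.2% are whole within 0.001.

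Counts of 28756 transcripts were summed to 16963 genes by gene ID and rounded; 319 transcripts without a gene ID (0.285 to 0.328% of counts) were left out. Whether counting used strand is not given in the sources used here, and reads shared with antisense or near-identical genes cannot be traced. No positions are printed because the reference table is of another build. Protein and promoter searches were planned but no sequences were at hand.

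Tests were run in R 4.3.3 with the quasi-likelihood method of edgeR 4.0.16 (TMM, filterByExpr with a minimum count of 10 and total of 15, 12811 genes), two-sided, with Benjamini-Hochberg adjusted p over all genes under 0.05 as the threshold, and were tested on simulated data. The simulated libraries varied less than the data do in the fit without the block. The simulation therefore does not show how that fit performs at its own spread. SE is derived from the F statistic, and log2 CPM has a prior count of 2. DESeq2 1.42.0, limma 3.58.1 (voom, and log2 TPM), other scalings, no filter and leaving out libraries were alternatives. Both fractions of a line share that line, which the labels name, so the design is paired; deviations of same-line libraries from their group means correlated at r = 0.66, 0.17 and 0.49 across genes. P-values without the block are set against the spread among libraries of a fraction, which includes the spread between lines. With the line as a block they are set against the spread of the fraction difference across these lines.

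Members and lists were chosen with earlier results of these data known. The rule named all members, the 4 genes of each list with the smallest p, and the 3 genes nearest in profile to IL2RG and IL6ST (CSF2RB had no row). One item of a list is not reported here and was left out of that list's counts. Other genes were chosen after their values were seen.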

Additional observations from a re-analysis of the deposited data

Results flagged for a closer look

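The shorter IL6ST transcript ENSGALT00000062394 differed in direction between lines. Its log2 difference of ALDH+ over ALDH- was -1.54 in C27, 0.35 in C29 and 0.62 in C30 (CPM with 0.1 added). The difference between lines was not tested, since each line has 1 library per fraction. The transcript's share of the gene's counts went from 33.2 to 9.90% in C27, from 26.8 to 22.9% in C29 and from 31.4 to 23.3% in C30. Estimated counts divide reads shared by both transcripts, and the part of that division in the difference was not tested.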

How the results depend on the processing

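The directions of IL2RG, CSF3R, IL10RA, IL10RB, IL21R and IL1R1 were the same under every alternative run, and IL6ST turned to -0.24 (adjusted p = 0.547) when libraries were scaled to fibroblast markers, a scaling chosen after the data were examined. IL10RA, not called in edgeR, passed with the replicate block (-2.52), in DESeq2 (-2.25), limma-voom (-2.54), without a filter (-2.25), on log2 TPM with a pseudocount of 1 (-1.66) or 0.1 (-2.03) and scaled to fibroblast markers (-3.09). In edgeR IL10RA did not pass with RLE factors (adjusted p = 0.0642), upper quartile factors (0.0693) or library size only (0.0551). Nor did it pass in limma on log2 TPM with a pseudocount of 1 and no filter (adjusted p = 0.0995). IL21R did not pass on log2 TPM with a pseudocount of 1 (-1.14, adjusted p = 0.0513) or 0.1 (-2.10, 0.0547). The replicate block changed no other member's call.

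Over all genes 107 were higher and 679 lower in ALDH+. The number higher was 758 with the block, 654 in DESeq2, 268 and 238 on log2 TPM with pseudocounts of 1 and 0.1, and 33 scaled to fibroblast markers, where 5400 were lower. The number lower was 432 on log2 TPM with no filter. Over the 6 pathway lists the number higher was 0 in edgeR and limma-voom, against 4 with the block and 3 in DESeq2, and the number lower was 12, against 46 scaled to fibroblast markers. Genes that differ between lines numbered 47, against 1226 in DESeq2, 7 with RLE factors and 269 with no filter.

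Leaving out 1 library at a time gave log2 changes of -5.61 to -4.84 for IL2RG, -5.15 to -4.38 for CSF3R, -3.17 to -1.93 for IL10RA, -2.32 to -1.59 for IL10RB, -3.31 to -2.33 for IL21R, 0.43 to 0.93 for IL6ST and 0.64 to 1.21 for IL1R1. Members lower numbered 2 to 5 and members that differ between lines 0 to 1. All genes higher numbered 13 to 370, lower 425 to 753, and differing between lines 45 to 1985. Lists together had 9 to 14 lower. Scaling to fibroblast markers turned the medians of the IL-1 and ligand lists to -0.73 and -0.59, and the block turned that of the ligand list to -0.18. Depth limits IL21R, with 52 counts over the ALDH+ libraries, and IL2RA among the other chains, with 26.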
